A study of Drosophila melanogaster with 39 samples.

Results

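Transposon piRNAs were described here by strand, as the reads antisense and sense to transposable elements among all annotated reads bound to Piwi. These are 2 of the 7 classes of the deposited annotation, the others being exon sense, exon antisense, intron sense, intron antisense and Rest, the reads outside all of these. The annotation holds 14 rows, each from 1 immunoprecipitation of tagged Piwi, out of 39 samples in the series. Of these, 4 rows are from Drosophila ovaries and 10 from ovarian somatic sheath cells (OSC), a cultured line of somatic ovary cells.

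The constructs differ in the specificity loop (SL) of Piwi, a stretch of the MID domain beside the pocket that holds the first base of the small RNA. In ovaries the constructs were Ago3 (the loop of Drosophila Ago3), GSS (a flexible glycine-serine-serine loop), LD (loop deficient) and wt (Piwi's own loop). In OSC the same 4 were sequenced, together with the loops labelled Aub, dAt1, dAt5, hAgo2wt, hAgo2PT and PiwiP4. All ovary transgenes carried FLAG and HA tags and a UAS promoter, driven by Gal4 under the control of the piwi promoter. The study's text places wt, Ago3 and GSS in piwi null ovaries rescued by the transgene, and LD in piwi heterozygous ovaries, whereas the deposited genotype label of LD has the same homozygous driver as the others. Ovary LD therefore differs from ovary wt in loop and, by that text, in genotype. OSC expressed the tagged constructs from plasmids, and the study's text describes no removal of their own piwi.

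Piwi is the nuclear PIWI protein of the fly. It is guided by piRNAs to nascent transposon transcripts, which it represses, and a guide must be antisense to the transposon to recognize it. Somatic ovary cells make Piwi piRNAs from long single-stranded precursors such as flamenco, in which transposon remnants lie mostly in antisense orientation. Germ cells also express Aub and Ago3, which cut transposon transcripts and cluster transcripts in turn (the ping-pong cycle), and so produce piRNAs of both strands. Ovaries contain germ cells and somatic cells, while OSC are somatic. In reads from whole ovaries, a change in the number of cells of a type cannot be told apart from a change in small RNA per cell. The annotation resolves no single gene, so the tissue labels were not checked against marker genes.

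The constructs can be told apart in the forward primers with which the loops of the 3 mutants present in both tissues were built. They are shown because these constructs carry the comparison between tissues. Capitals mark the 5′ part that the study's primer list sets apart by case, and each primer covers only one side of its loop in piwi (chromosome arm 2L). In the Ago3 primer the 18 capitals differ from the lower-case stretch of the GSS primer at 2 positions, while the capitals of GSS and LD precede a lower-case stretch that these primers share over 20 bases.
Ago3: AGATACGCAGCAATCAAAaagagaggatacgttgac
GSS: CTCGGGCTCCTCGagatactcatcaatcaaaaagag
LD: GGCGGCtactcatcaatcaaaaagagag

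Before the strands were compared, each row total was set against the mapped reads (unique mappers plus multimappers with M ≤ 100) of the library that the row names. In 7 of 14 rows the 2 numbers were identical. These were wt, Ago3 and GSS in ovaries, and Aub, dAt1, dAt5 and PiwiP4 in OSC. Such rows hold mapped reads of every length, although the study's legends restrict this annotation to 24–29 nt. Ovary LD was the exception, since its total of 11906858 reads equals its 24–29 nt reads and is 69.4% of its 17151596 mapped reads. Ovary LD and the other ovary rows thus cover different length classes.

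Another 3 totals equal the mapped reads of a different library. The row labelled hAgo2wt holds 26743393 reads, the number mapped in the hAgo2PT library, and the row labelled hAgo2PT holds 18059883, the number mapped in the hAgo2wt library. The row of OSC LD is named for replicate 1 (891760 mapped reads) and holds the 2736859 mapped reads of replicate 2. In the last 3 rows no library matched. The total of OSC wt was 100.3% of replicate 1, which it names, and exceeds it by 32647 reads. OSC GSS reached 99.5% of its replicate 1. OSC Ago3 is named for replicate 1 but was 200.0% of that library and 99.6% of replicate 2. Values of these rows are given below for the row labelled so.

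**Figure D1:**
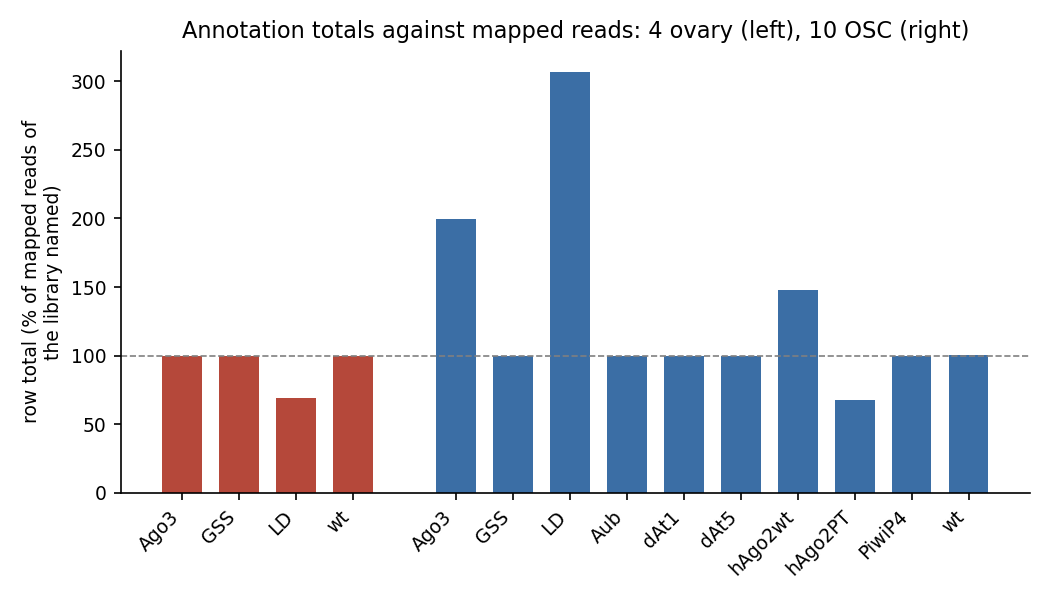
Total of each annotation row as a percentage of the mapped reads (unique plus M ≤ 100) of the library that the row names, with ovary rows in red on the left and OSC rows in blue on the right. The dashed line marks 100%, and the rows that leave it clearly are ovary LD (69.4%) and OSC Ago3 (200.0%), LD (306.9%), hAgo2wt (148.1%) and hAgo2PT (67.5%).

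Row totals ranged from 4545657 to 18407140 reads in ovaries and from 2736859 to 64892223 in OSC. Transposon reads numbered from 3252345 to 12189824 in ovary rows and from 1320157 to 45007635 in OSC rows. At this depth the exact Clopper-Pearson 95% interval of a strand ratio spanned 0.258% to 0.458% of its value in ovaries and 0.228% to 1.38% in OSC. These intervals cover counting error only, since PCR reads are not independent molecules. Each construct has 1 row, so differences between constructs were not tested, and the SD over the rows of a tissue is the spread between constructs.

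In every row, more transposon reads were antisense than sense, but by far less in ovaries than in OSC. Ovary Ago3 had 2134396 antisense and 1117949 sense reads, or 1.91 antisense reads per sense read. The ratio was 2.57 in ovary GSS (4953312 antisense and 1928355 sense reads) and 2.04 in ovary LD (7006319 antisense and 3437670 sense reads). Ovary wt stood above all 3, with 9997067 antisense and 2192757 sense reads and a ratio of 4.56. In terms of the minor strand, ovary Piwi bound 52.4 sense reads per 100 antisense reads with the Ago3 loop, 38.9 with GSS, 49.1 with LD and 21.9 with wt.

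In OSC the strands were far more unequal, at 5.69 to 8.55 sense reads per 100 antisense reads. The lowest ratio of antisense to sense was 11.7, in the row labelled hAgo2PT. OSC wt followed at 12.3, Aub at 12.7, dAt1 at 13.0, hAgo2wt at 13.1 and PiwiP4 at 13.1. OSC Ago3 and LD had the same ratio to 3 digits, 14.3, close to dAt5 at 14.4. GSS was highest at 17.6, with 9498841 antisense and 540639 sense reads. Along this order, counting intervals overlapped in 3 of the 9 neighbouring pairs of OSC rows, namely dAt1 with hAgo2wt, Ago3 with LD and LD with dAt5. In none of the 3 neighbouring pairs of ovary rows did they overlap.

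**Figure D2:**
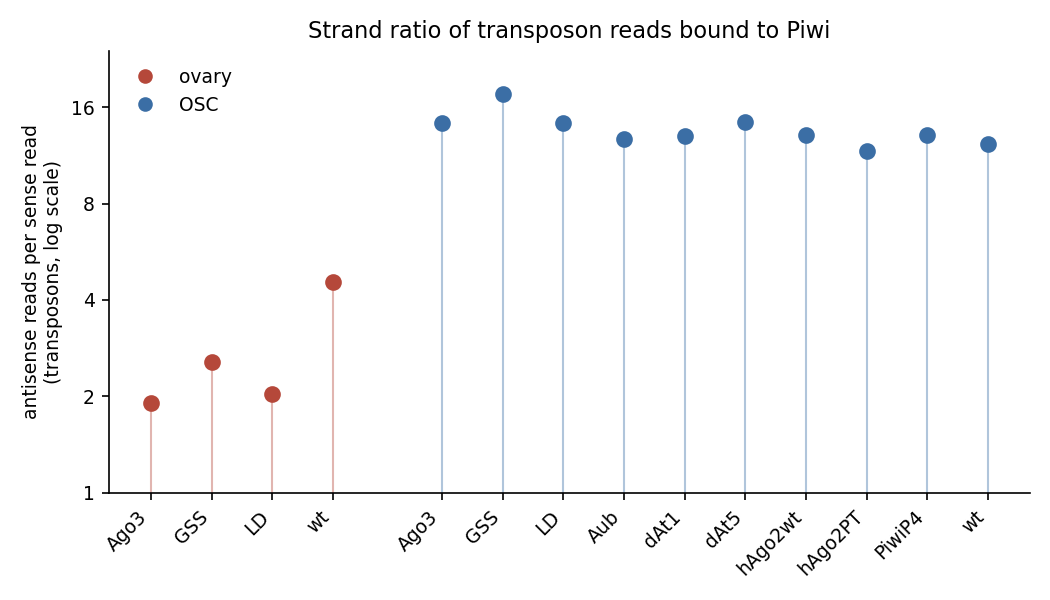
Antisense reads per sense read of transposons for each annotation row, on a log axis, with 4 ovary rows in red on the left and 10 OSC rows in blue on the right. Ovary rows lie between 1.91 and 4.56 and OSC rows between 11.7 and 17.6, so the tissues do not overlap.

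The ratio averaged 1.38 ± 0.57 on the log2 scale in ovaries (SD, n = 4 rows), a geometric mean of 2.60, and 3.76 ± 0.16 in OSC (SD, n = 10 rows), a geometric mean of 13.6. Ovaries were lower by a log2 difference of −2.38, or 5.22-fold. All 4 ovary rows lay below all 10 OSC rows (two-sided exact permutation test, p = 0.000999, the smallest that 4 rows against 10 can give, and an adjusted p = 0.00167 over 5 results). The test asks whether rows could be exchanged between tissues, and since ovary rows also varied more than OSC rows it is not a test of the means alone, and a p near the threshold may be too small. Rows of a tissue differ in loop and are not replicates of 1 condition, and some OSC loops have no ovary row. With the 4 shared constructs as pairs, the log2 difference was −2.48. An exact sign-flip permutation test of these pairs gave p = 0.125, the smallest it can give. Tissue coincides with the way of expression (transgene or plasmid), and nearly so with the kind of library barcode, because all ovary barcodes begin with 2 degenerate bases and among the OSC rows only that of LD does. With that barcode start in both tissues, the ratio was 1.91 to 4.56 in ovaries and 14.3 in OSC LD, a log2 difference of −2.46 that rests on this 1 OSC row, whose total matches another replicate than the one it names. The state of the cells' own piwi also nearly coincides with tissue. By the study's text it was lost in the ovaries of wt, Ago3 and GSS, while no removal from OSC is described. The way of expression, the kind of barcode and the cells' own piwi cannot be told apart from tissue.

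For each of the 4 constructs sequenced in both tissues, the ratio was lower in ovaries, and most of the difference lay in the sense strand. With wt the ratio was 4.56 in ovaries and 12.3 in OSC, a log2 difference of −1.43. The mutants differed further, by −2.90 for Ago3, −2.77 for GSS and −2.81 for LD. Sense reads made up 24.6% of annotated reads in ovary Ago3 against 4.59% in OSC Ago3, which is 5.36 times as much. They were 5.63 times as frequent for GSS (21.3% in ovaries and 3.78% in OSC) and 9.14 times for LD (28.9% in ovaries and 3.16% in OSC). For wt they were 2.41 times as frequent, at 11.9% in ovaries and 4.95% in OSC. The antisense share moved less, and not in one direction. It was 0.717 times the OSC share for Ago3, 0.823 times for GSS and 0.894 times for wt, but 1.31 times for LD, whose OSC row has the lowest antisense share of all.

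When Rest was left out of the denominator, the antisense share of wt was 67.4% in ovaries and 67.9% in OSC. The sense share of wt without Rest was 14.8% in ovaries and 5.53% in OSC. For wt, nearly all of the difference in ratio was therefore in the sense strand, with a log2 difference of −0.01 in antisense reads and 1.42 in sense reads. Without Rest, all 4 constructs had a lower antisense share in ovaries, with log2 differences of −0.32 for Ago3, −0.23 for GSS, −0.08 for LD and −0.01 for wt. The sense share was higher by 2.58, 2.55, 2.73 and 1.42 in the same order. The LD rows again cover different length classes in the tissues.

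**Figure D3:**
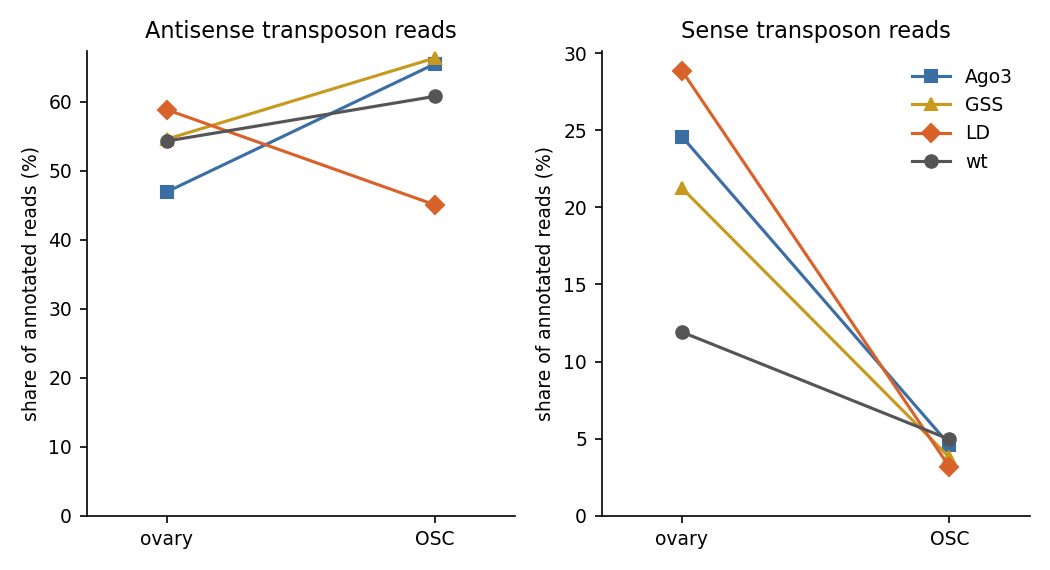
Antisense (left panel) and sense (right panel) transposon reads as a percentage of annotated reads in ovaries and OSC, for the 4 constructs sequenced in both, each line joining 1 construct. Sense shares are 11.9% to 28.9% in ovaries and 3.16% to 4.95% in OSC, while antisense shares are lower in ovaries for Ago3, GSS and wt and higher for LD.

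Over all rows, sense transposon reads were 21.7% ± 7.21 of annotated reads in ovaries (SD, n = 4) and 4.57% ± 0.637 in OSC (SD, n = 10). This difference of 17.1 percentage points held without overlap between the tissues (exact permutation test, p = 0.000999, adjusted p = 0.00167). Antisense reads were 53.7% ± 4.94 in ovaries and 61.7% ± 6.12 in OSC, a difference of −8.05 points. It passed the same exact permutation test (p = 0.0300, adjusted p = 0.0370), but the tissues overlapped, since ovary rows ranged from 47.0% to 58.8% and OSC rows from 45.1% to 66.3%. Without ovary Ago3 the antisense difference was −5.81 points and no longer passed (exact permutation test, p = 0.119). Without OSC Ago3, whose total matches no library, it was −7.64 points and did not pass (exact permutation test, p = 0.0531). The overlap came from OSC LD alone, as the other OSC rows began at 60.7%. Without OSC LD the difference was −9.90 points (exact permutation test, p = 0.0014, the smallest possible). With Rest left out of the denominator it was −8.24 points (exact permutation test, p = 0.0020). With the 4 matched constructs alone it was −5.74 points and did not pass (exact permutation test, p = 0.343).

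Transposons of both strands together were the source of most annotated reads in all rows but OSC LD. Their share was 71.5% in ovary Ago3, 75.8% in GSS, 87.7% in LD and 66.2% in wt. Among OSC rows it was 48.2% in LD and between 65.7% (wt) and 70.1% (GSS) in the other 9. The mean share was 75.3% ± 9.14 in ovaries (SD, n = 4) and 66.3% ± 6.53 in OSC (SD, n = 10), a difference of 9.03 points with overlapping ranges (exact permutation test, p = 0.0370, adjusted p = 0.0370). Both LD rows stand at the ends of this range. Without LD in either tissue the difference was 2.89 points and did not pass (exact permutation test, p = 0.136), and without ovary LD alone it was 4.90 points (p = 0.276). The shares of wt differed by 0.494 points between ovaries and OSC.

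Rest took up 7.50% of ovary LD, which covers only reads of 24–29 nt, and 15.1% to 20.3% of the other ovary rows. It was 33.0% of OSC LD and 10.5% to 13.8% of the other OSC rows. In LD replicate 2, the library whose mapped reads equal the OSC LD total, 31.8% of the raw reads mapped. Of its 2736859 mapped reads, only 1500791 were 20–30 nt long. In OSC rows whose total equals the mapped reads of the library they name, 20–30 nt reads were 89.9% (dAt1) to 93.6% (Aub) of mapped reads. The OSC LD row thus holds many reads outside the usual length of piRNAs. In the ovary rows of all lengths, 20–30 nt reads were 78.9% (wt), 78.2% (Ago3) and 83.1% (GSS) of mapped reads. Length composition thus also differed between the tissues. The part of length class and mapping in the shares of LD, and in the differences between tissues, was not tested.

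**Figure D4:**
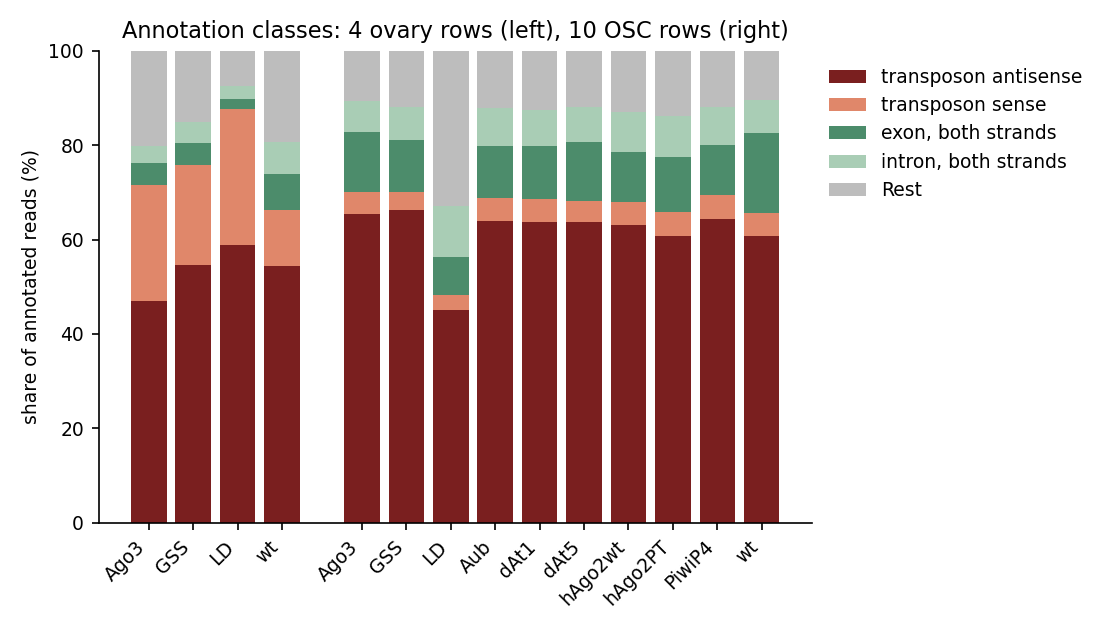
Composition of each annotation row in percent of annotated reads, stacked from transposon antisense at the bottom through transposon sense, exons and introns (both strands each) to Rest, with ovary rows on the left and OSC rows on the right. Sense transposon reads form a band of 11.9% to 28.9% in ovaries and of 3.16% to 5.19% in OSC, and OSC LD has the largest share of Rest (33.0%).

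With Rest left out, the transposon share was higher in every ovary row than in every OSC row. It was 89.7% in ovary Ago3, 89.3% in GSS, 94.8% in LD and 82.2% in wt. OSC rows ranged from 72.0% in LD and 73.5% in wt to 79.6% in GSS. The means were 89.0% ± 5.21 in ovaries (SD, n = 4) and 77.1% ± 2.48 in OSC (SD, n = 10), a difference of 11.9 points (exact permutation test, p = 0.000999, adjusted p = 0.00167). It remained at 9.41 points without LD in either tissue. There the same exact permutation test had to give its smallest p (0.00455), since the tissues already did not overlap. Among matched constructs the difference was smallest for wt, at 8.70 points, and 9.79 points for GSS, 11.2 points for Ago3 and 22.9 points for LD. The LD rows cover different length classes in the tissues. Exon and intron reads make up the remainder, at 2.14% to 7.75% (exons) and 2.64% to 6.63% (introns) of annotated reads in ovaries, and 7.99% to 16.7% (exons) and 6.55% to 10.8% (introns) in OSC.

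**Figure D5:**
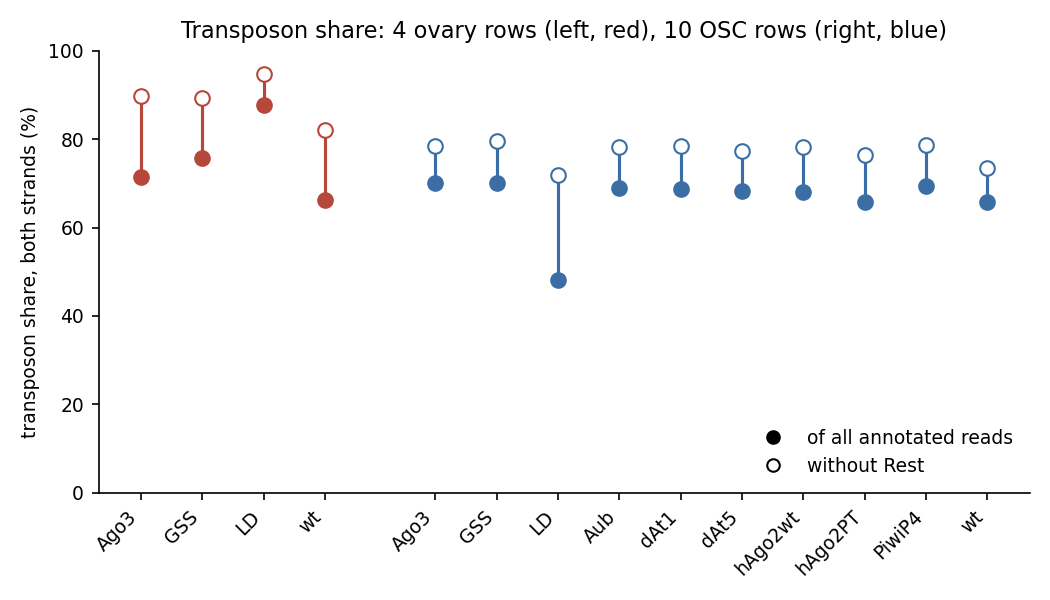
Transposon reads of both strands as a percentage of all annotated reads (filled circles) and of annotated reads without Rest (open circles) for each row, with ovary rows in red on the left and OSC rows in blue on the right. Filled circles overlap between tissues (66.2% to 87.7% in ovaries and 48.2% to 70.1% in OSC), and open circles do not (82.2% to 94.8% in ovaries and 72.0% to 79.6% in OSC).

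Within ovaries, all 3 mutant rows had a lower strand ratio than wt, a comparison of single rows that was not tested. Relative to the wt ratio, that of Ago3 was 0.419, that of GSS 0.563 and that of LD 0.447. Sense reads were more frequent in each, at 24.6% of annotated reads in Ago3, 21.3% in GSS and 28.9% in LD, against 11.9% in wt, which is 2.06, 1.78 and 2.42 times the wt share. Antisense reads differed from wt by −7.36 points in Ago3, by 0.279 points in GSS and by 4.53 points in LD. The larger transposon share of the ovary mutants without Rest, 7.19 to 12.7 points above wt, thus came from sense reads in all 3 rows, as their antisense share without Rest (58.9% in Ago3, 64.3% in GSS and 63.6% in LD) was below the 67.4% of wt. Multimapping reads made up 75.8% of mapped reads in the library of ovary Ago3, 76.4% in GSS and 75.6% in LD, against 70.2% in wt, and their part in the strand ratio was not tested.

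Within OSC, 8 of 9 mutant rows had a ratio above wt, with log2 differences from −0.07 (hAgo2PT) to 0.52 (GSS). These are small beside those of the ovary mutants, which lay between −1.26 and −0.83. The direction for the mutants present in both tissues was opposite, with 0.22 for Ago3, 0.52 for GSS and 0.22 for LD in OSC. In each tissue all differences share the same wt row, and they were not tested. The total of OSC wt matches no library, and neither do those of OSC Ago3 and GSS. In OSC GSS the sense share was 3.78% against 4.95% in wt, and the antisense share 66.3% against 60.8%. The sense share of OSC mutants was above wt only in hAgo2PT (5.19%) and Aub (5.02%), and 7 of 9 lay below. The totals of hAgo2wt and hAgo2PT equal each other's mapped reads, and with exchanged labels the construct below wt would be hAgo2wt. Among mapped reads, multimapping reads were 69.4% ± 0.322 with the Ago3 loop, 70.2% ± 0.726 with GSS and 70.7% ± 0.786 with LD (SD, n = 3 libraries each), against 65.7% ± 1.26 with wt (SD, n = 5 libraries). Their part in the strand ratio of OSC was not tested.

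The strand order of transposon reads was not shared by the other classes. Exon reads were mostly sense in all rows, with 0.0312 to 0.237 antisense reads per sense read in ovaries and 0.0551 to 0.196 in OSC. In ovaries the mutants were again below wt, at 0.0632 in Ago3, 0.109 in GSS and 0.0312 in LD against 0.237 in wt. The highest exon ratio of OSC was that of LD (0.196), where wt had 0.0551. Intron reads had 0.402 to 0.819 antisense reads per sense read in ovaries and 0.396 to 0.574 in OSC. Here the mutants of ovaries lay above wt, at 0.819 in Ago3, 0.686 in GSS and 0.453 in LD against 0.402 in wt.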

How the data were processed

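Small RNAs bound to FLAG-HA-tagged Piwi were sequenced in 24 libraries, of which 4 are from ovaries and 20 from OSC. The authors removed adapters with cutadapt, mapped reads to dm6 with STAR and deposited counts of reads per annotation class, of mapped reads and of reads by length. Per the file headers, antisense transposon counts stand in a column (recorded as other values) that also holds words of a legend. The mapping statistics, also recorded as other values, mix deposited counts with percentages, and only the counts were used. The 2 deposited tables of total RNA libraries have no annotation and were not used here, and 0 columns stayed unmatched.

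Shares and ratios were computed per row in Python 3.11.15 with pandas 2.3.3 and numpy 2.4.6, and 95% Clopper-Pearson intervals with scipy 1.17.1. Figures were drawn with matplotlib 3.10.9. Tissues were compared by two-sided exact permutation tests with a threshold of 0.05 and Benjamini-Hochberg adjustment over 5 results, tested on simulated data. In the simulation the test kept its error rate with equal spread, but called differences in the mean too often when ovary rows varied more than OSC rows. Alternatives were matched constructs, other denominators, and leaving out rows. No single gene is named, and all 14 rows are described. The classes, rows and tests were chosen with earlier results of these data known. Nothing in the labels says that rows came from separate cultures or flies beyond their construct.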

Additional observations from a re-analysis of the deposited data

Results flagged for a closer look

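In OSC, 4 values stood apart from the other rows by the gap to the nearest row relative to the whole range (Dixon's test at the 95% level, 24 ends of 12 sets of rows, of which chance flags about 1 in 20 sets). GSS had the highest strand ratio, 17.6 antisense reads per sense read, with the next row, dAt5, at 14.4. LD had the lowest transposon share, 48.2% with the next row at 65.7%, and the lowest antisense share, 45.1% with the next row at 60.7%. It also had the highest share of Rest, 33.0% with the next row at 13.8%. These LD values are shares of the same total, so a larger Rest lowers the others, and they are not separate results. Without Rest, the transposon share of OSC LD (72.0%) did not stand apart, and neither did its strand ratio (14.3).

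Loop mutants went opposite ways in the tissues. The log2 ratio of antisense to sense reads was below wt in all 3 ovary mutants, at −1.26 for Ago3, −0.83 for GSS and −1.16 for LD. In OSC it was above wt for the same constructs, at 0.22 for Ago3, 0.52 for GSS and 0.22 for LD. With 1 row per construct this difference was not tested, and the 3 values of a tissue share 1 wt row. The label of OSC LD names a replicate other than the one its total matches, and the ovary LD row covers another length class than ovary wt.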

How the results depend on the processing

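No paired analysis was possible because the labels of the ovary rows carry no replicate number, so that none is shared between the tissues. Constructs were matched instead. Leaving out each row in turn gave differences between ovaries and OSC of −2.65 to −2.24 for the log2 strand ratio, 14.7 to 20.3 percentage points for the sense share, 9.98 to 14.2 for the transposon share without Rest, −9.90 to −5.81 for the antisense share and 4.90 to 12.1 for the transposon share. The first 3 passed the exact permutation test in all 14 cases. That outcome was fixed in advance, because their rows do not overlap between tissues and every case gives the smallest possible p. The antisense share passed in 12 cases and the transposon share in 9. It was lost without OSC wt (p = 0.0573), OSC hAgo2PT (p = 0.0573), ovary Ago3 (p = 0.0524), ovary GSS (p = 0.161) or ovary LD (p = 0.276), all by exact permutation.

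With the 4 matched constructs alone, the transposon share differed by 11.8 points (exact permutation test, p = 0.114) and the antisense share by −5.74 (p = 0.343), neither past the threshold. As pairs in an exact sign-flip permutation test, no result can go below p = 0.125, and the differences were −2.48 (log2 ratio), 11.8 (transposon share), 13.1 (transposon share without Rest), −5.74 (antisense share) and 17.5 (sense share). Without LD in either tissue the transposon share differed by 2.89 points. With the mean mapped reads of a construct's libraries as denominator it reversed to −6.16 points (exact permutation test, p = 0.504), but this share exceeds 100% in OSC wt and hAgo2wt since the hAgo2wt total equals that of another library and the mean of 5 wt libraries is below the wt row total.

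Alternatives chosen after seeing the data were a choice of rows by barcode, a choice by row total and looser matches of the totals. Among rows with degenerate barcodes (4 ovary rows and OSC LD, smallest possible p = 0.20 by exact permutation), the differences were −2.46 (log2 ratio), 27.1 (transposon share), 17.1 (transposon share without Rest) and 18.5 (sense share), and the antisense share reversed to 8.60. In rows whose total equals the mapped reads of the library they name (3 ovary and 4 OSC rows), the transposon share differed by 2.44 points (exact permutation test, p = 0.371). The antisense share of these rows differed by −12.0 points (exact permutation test, p = 0.0286, the smallest possible). Of the 14 row totals, 10 equal the mapped reads of any Piwi library and 9 lie within 1% of the library named.

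Exchanging the labels of hAgo2wt and hAgo2PT gives hAgo2wt a log2 difference from wt of −0.0711 and hAgo2PT one of 0.0898, so both reversed. The row totals equal the 24–29 nt reads of the library named in 1 row, the 20–30 nt reads in 0 and the mapped reads with M > 100 in 0.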
